A study of Homo sapiens with 102 samples.

Results

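K562 cells treated with imatinib plus YM115 were compared with K562 cells treated with imatinib plus the solvent DMSO. The comparison used 24 of the 102 libraries of the series. These were the 12 libraries of the ordered pairs Imatinib_YM115 and YM115_Imatinib, and the 12 of Imatinib_DMSO and DMSO_Imatinib. Each arm held 6 libraries of the dT screen and 6 of the Bio screen, with 3 runs per ordered pair. The Bio screen used the same drugs with the barcodes exchanged between the drug sources. K562 is an established chronic myeloid leukaemia line, so each value describes one line after 12 h in droplets. Doses are not in the labels of these libraries and are not used here, and the labels' YM115 is the compound that the study calls YM155. Each library pools the droplets that received one ordered drug pair. The labels number the runs, and the study describes its replicates as biologically independent experiments.

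Imatinib inhibits the kinase of the BCR-ABL fusion, on which K562 cells depend for growth and survival signals. YM155 was developed as a suppressor of the expression of survivin, the product of BIRC5, which takes part in chromosome segregation and restrains caspases. K562 cells also have an erythroid side: they make embryonic and fetal globin chains, and agents that push them towards erythroid maturation raise these transcripts further.

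The labelled line was checked against its markers. HBG2 was counted in 24 of 24 libraries and HBZ in 23. GATA1, the erythroid master regulator, was counted in 14, KLF1 in 1 and LMO2 in 0. Among lymphocyte markers CD3D was counted in 4 libraries and CD3E, MS4A1 and TRAC in 0, and the list made up at most 0.0373% of counts in any library. Fibroblast markers made up at most 0.000762%. Among the epithelial markers CDH1 was counted in 24 of 24 libraries at a median of 146.6 CPM (counts scaled to a library total of 1000000), KRT19 in 19 at a median of 120.4, MUC1 in 7, EPCAM in 3, KRT5 and CLDN4 in 1 each and KRT14 in 0. The epithelial list made up at most 0.200% of counts.

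Libraries with YM115 were deeper. Total counts in dT ran from 127042 through a median of 283823.5 to 310265 without YM115, and from 280742 through 373717 to 759756 with it. In Bio the same statistics were 86866, 198466.5 and 298484 without YM115 and 130198, 251231.5 and 447582 with it. The arms overlapped in both screens. In such pooled libraries more cells and more RNA per cell cannot be told apart. Each drug also brought its own barcode fragment, so a difference between fragments cannot be told apart from one between YM115 and DMSO. Over both screens the total rose by 0.59 on the log2 scale (exact permutation test within screen and run, two-sided, p = 0.0223, 46656 arrangements, adjusted p = 0.0223 over 3 library measures). Within dT the difference was 0.74 (exact p = 0.0278) and within Bio 0.43 (exact p = 0.343). Genes with at least 1 count ran from 1030 to 3515 without YM115 and from 1377 to 5110 with it. Their number rose by 0.41 on the log2 scale (exact permutation p = 0.0125, adjusted p = 0.0188), with 0.40 in dT (exact p = 0.0648) and 0.43 in Bio (exact p = 0.139). After every library was reduced to the smallest total, 86866 counts, the difference was 0.28 (exact permutation p = 0.0145).

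The share of counts from mitochondrial genes fell. In dT it ran from 3.72% through a median of 4.40% to 5.92% without YM115 and from 2.71% through 3.65% to 3.92% with it. In Bio it ran from 2.47% through 5.10% to 6.87% without YM115 and from 2.82% through 4.21% to 6.48% with it. The dT arms overlapped only between 3.72% and 3.92%, while the Bio arms overlapped over most of their range. The mean fell from 4.83% ± 1.30 (SD, n = 12) to 3.96% ± 1.07 (SD, n = 12), a difference of -0.87 percentage points (exact permutation test within screen and run, two-sided, p = 0.00446, adjusted p = 0.0134). The difference was -1.24 points in dT (exact p = 0.00926) and -0.50 points in Bio (exact p = 0.204). Exchanging labels within screens alone, without the run, gave an exact p of 0.0807. Without MT-ND1 in the share, the difference was -0.57 points (exact permutation p = 0.0354).

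**Figure D1:**
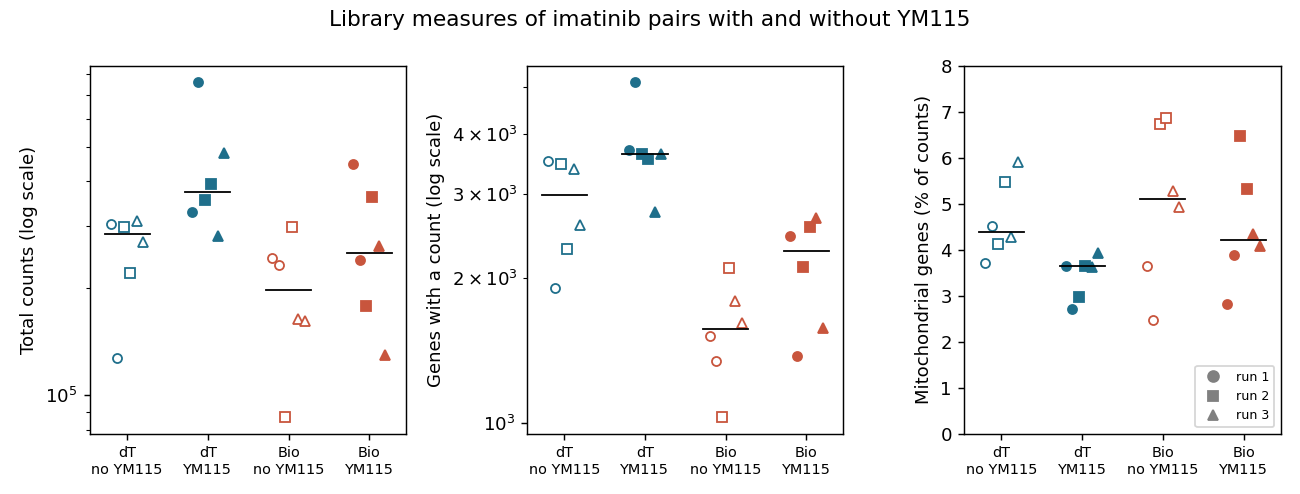
Total counts, genes with a count (both on log axes) and mitochondrial share of counts (%) for the 24 libraries, by screen and arm. Each symbol is 1 library, its shape gives the run, open symbols are imatinib with DMSO, filled symbols are imatinib with YM115, and bars are medians. The filled symbols lie lower in mitochondrial share in dT (median 3.65% against 4.40%), and the arms overlap in every panel.

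The gene comparison asked which transcripts change when YM115 joins imatinib. Tested genes had a read in no fewer than 50% of the libraries of a fit, by edgeR's quasi-likelihood test, with screen and run as a block. Of 1438 genes tested over both screens, 0 passed an adjusted p of 0.05, which is 0.0% of those tested. At an unadjusted p under 0.05 there were 100 genes, 61 higher and 39 lower, or 6.95%. DESeq2 on the same genes called 78 (46 higher and 32 lower), or 5.42%. Only 2 of those 78 had a count in all 24 libraries, and 63 had one in at most 18, as had 920 of the 1438 genes tested. The dT fit passed 0.0% of 2326 genes (159 or 6.84% at an unadjusted p under 0.05, 143 by DESeq2), and the Bio fit 0.0% of 1012 (54 or 5.34%, and 56 by DESeq2). Detection set the precision: the median standard error of log2 fold change was 1.64 for the 823 genes counted in 12 to 17 libraries, 1.09 for the 486 counted in 18 to 23, and 0.58 for the 129 counted in all 24. The median log2 fold change of these classes was 0.50, 0.25 and 0.07, and over all tested genes it was 0.30. With total counts as a covariate, the median over all tested genes was -0.06. When only the 129 genes counted in every library were tested, 2 passed, or 1.55%: HBG2, higher, and MT-ND1, lower.

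**Figure D2:**
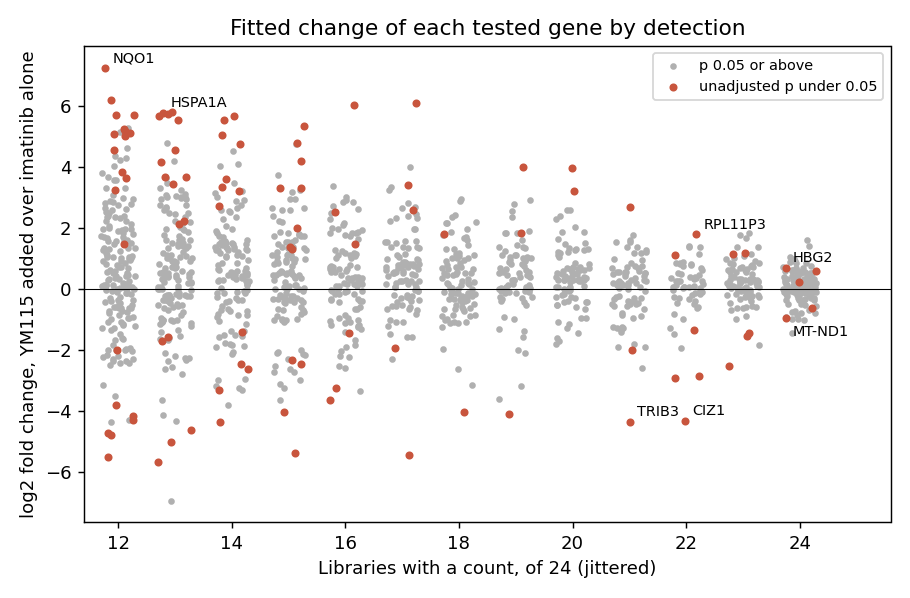
Fitted log2 fold change (YM115 added over imatinib alone, both screens) against the number of libraries with a count, for the 1438 tested genes. Horizontal jitter is added for legibility, and red points have an unadjusted p under 0.05. The fold changes fan out to the left, where genes such as NQO1 were counted in 12 libraries, and narrow on the right, where HBG2 and MT-ND1 were counted in all 24.

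HBG2 encodes the G gamma chain of fetal haemoglobin. It was the gene with the smallest p in the fit of both screens, and was named in an earlier account of these data. Its values by pair and by screen come from the same libraries as that fit, so they are not separate evidence. Its level in dT ran from 13114 through a median of 28218 to 46592 CPM without YM115, and from 39623 through 43501 to 77844 with it. In Bio it ran from 9083 through 21187 to 41698 without YM115 and from 17820 through 36614 to 53230 with it. The arms overlapped in both screens. The matched pairs did not cross: in 12 of 12 pairs of libraries with the same screen, run and imatinib position, HBG2 was higher with YM115. Of all 1438 genes, 3 (0.209%) were higher in every pair, and 0 (0.0%) were lower in every pair. For counts of fewer pairs, or of the pairs of 1 screen, given below, the share over all genes was not counted. The log2 fold change was 0.70 ± 0.15 (SE) over both screens, and edgeR's adjusted p was 0.104. The dT value was 0.86 ± 0.18 (edgeR adjusted p = 0.383) and the Bio value 0.81 ± 0.24 (edgeR adjusted p = 0.449), with no library in common. The adjusted p of the whole comparison depended on the processing. It was 0.00904 with the size factors of DESeq2 in place of TMM, 0.0173 with total counts alone, 0.00320 after thinning to equal totals, 0.00160 among genes counted in every library and 0.0225 when the libraries of YM115 alone and of solvent were fitted together with these. HBG2 passed in 18 of 39 alternative settings of the fit of both screens, and the largest edgeR adjusted p among them was 0.772. The log2 fold change stayed positive in all 39, between 0.45 and 0.95. With run 1, 2 or 3 left out, 0 genes passed (smallest edgeR adjusted p of any gene 0.285, 0.200 and 0.143). With total counts as a covariate 0 genes passed as well (smallest edgeR adjusted p 0.146). Leaving out 1 library brought HBG2 past the threshold in 12 cases, at edgeR adjusted p from 0.00669 to 0.0481. In dT these were DMSO_Imatinib of run 3, Imatinib_DMSO of runs 1 and 3, Imatinib_YM115 of runs 2 and 3, and YM115_Imatinib of runs 2 and 3. In Bio they were DMSO_Imatinib of run 2, Imatinib_DMSO of run 1, Imatinib_YM115 of run 2, and YM115_Imatinib of runs 1 and 2. Each fit was scaled on its own tested genes, so the value over both screens can lie outside those of the single screens.

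HBG2 has a nearly identical neighbour, HBG1, which encodes the A gamma chain. In GENCODE 29 transcripts their coding sequences differ at 2 of 441 bases, and 53.2% of the 30-base windows of HBG2 transcripts also occur in HBG1 transcripts, so reads can be split between them. Both differing bases are shown in capitals in windows on the minus strand of GRCh38, positions counted from the A of the start codon. The first is T227C from HBG2 to HBG1, at chr11:5254368-5254392 in HBG2 and chr11:5249444-5249468 in HBG1. The second is G410C, at chr11:5253299-5253323 and chr11:5248381-5248405. All lie in coding exons. The windows show where the coding sequences differ, and which bases the reads of these 2 genes covered was not examined.
HBG2 base 227: tgggagatgccaTaaagcacctgga
HBG1 base 227: tgggagatgccaCaaagcacctgga
HBG2 base 410: agatggtgactgGagtggccagtgc
HBG1 base 410: agatggtgactgCagtggccagtgc

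HBG1 was counted in only 4 of 24 libraries. HBZ, the embryonic zeta chain, was counted in 23 libraries and was higher in 10 of 12 matched pairs, 6 of 6 in dT. Its median in dT was 707.25 CPM without YM115 and 1808.5 with it, and in Bio 196.04 and 1513.6. The HBZ log2 fold change was 1.78 ± 1.05 (SE; edgeR adjusted p = 0.819). HBE1, the epsilon chain, was counted in 17 libraries at a median of 4.85 CPM, and its annotated span overlaps that of HBG2 (chr11:5268345-5505652 against chr11:5253190-5505605). Of 10 globins listed, 5 were tested and 0 passed, with a median log2 fold change of 0.70 beside 0.30 over all tested genes. The 3 of 5 above 0 were HBG2, HBZ and HBE1, and the other 2 tested globins lay below 0. Of the erythroid regulators and haem synthesis genes, 4 of 19 were tested and 0 passed, with a median of 0.37.

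MT-ND1 encodes a core subunit of respiratory complex I on the mitochondrial genome (chrM:3307-4262). In dT it ran from 5644.4 through a median of 7354.4 to 8535.5 CPM without YM115 and from 2466.6 through 3305.4 to 4217.0 with it. These dT arms did not overlap, which held for 13 of 2326 genes tested in dT (0.559%) and for 3 of 1012 in Bio (0.296%), MT-ND1 not among those 3. In Bio it ran from 2054.0 through 5139.6 to 8459.4 without YM115 and from 2564.9 through 3000.4 to 4457.7 with it. MT-ND1 was lower in 11 of 12 matched pairs, the exception being a Bio pair of run 1. The log2 fold change was -0.95 ± 0.25 (SE; edgeR adjusted p = 0.201), with -1.03 ± 0.24 in dT (edgeR adjusted p = 0.383) and -0.59 ± 0.54 in Bio (edgeR adjusted p = 0.984). Among genes counted in every library the edgeR adjusted p was 0.00417, and with the libraries of YM115 alone and of solvent in the fit it was 0.0225. MT-ND1 passed in only 2 of 38 alternative settings of the fit of both screens. Its edgeR adjusted p was 0.908 with imatinib named first and 0.942 with imatinib named second.

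**Figure D3:**
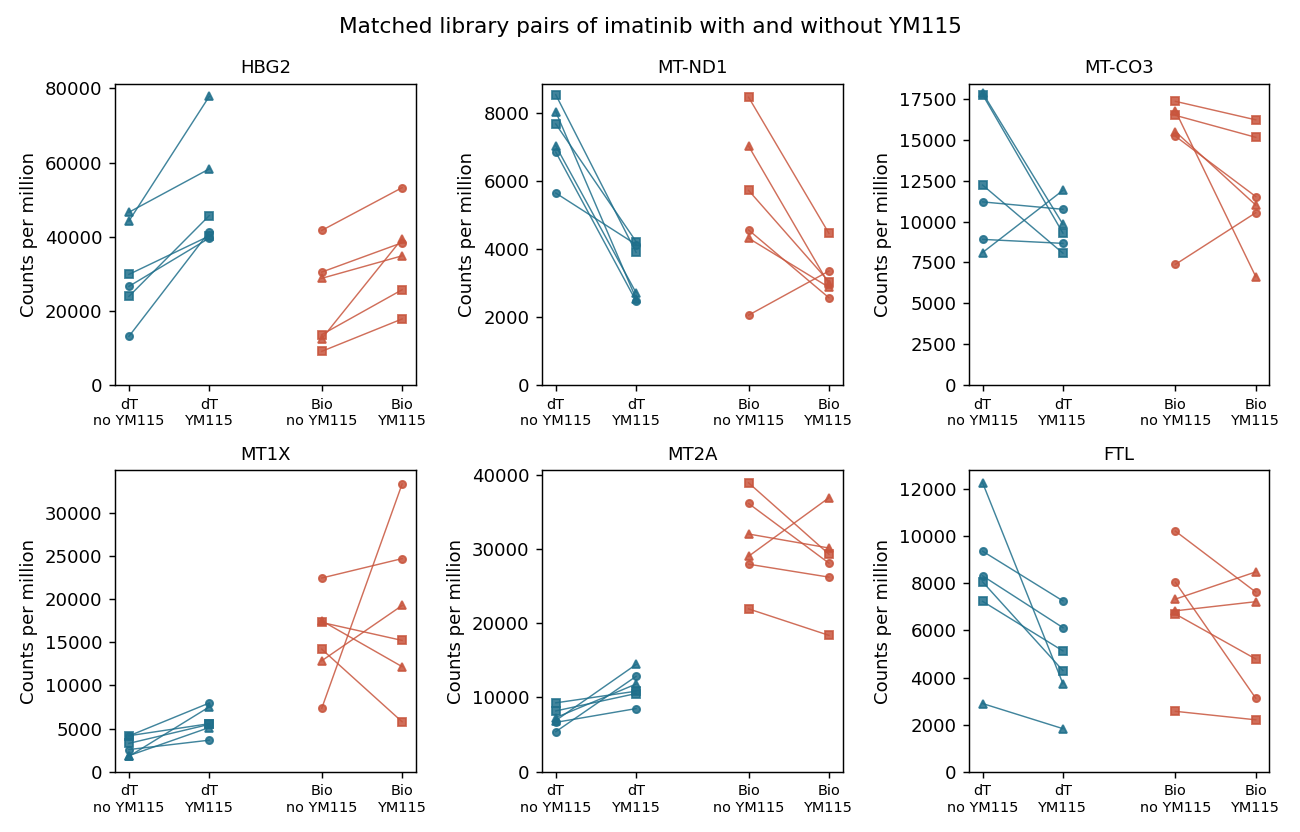
Level of 6 genes (CPM, linear axes from 0) in the 24 libraries. Each line joins the 2 libraries of one screen, run and imatinib position, without and with YM115, and marker shapes give the run. HBG2 lines go up in 12 of 12 pairs and MT-ND1 lines go down in 11 of 12, whereas MT2A lines go up in 6 of 6 dT pairs and in 1 of 6 Bio pairs.

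The other mitochondrially encoded messages differed in size and sign. MT-ND4, also of complex I, was lower in 11 of 12 pairs, with a dT median of 2288.6 CPM without YM115 and 1011.0 with it (log2 fold change -1.03 ± 0.64 SE, edgeR adjusted p = 0.819). MT-ND5 was lower in 8 of 12 pairs (-0.78 ± 0.57). Of the 5 tested complex I messages 4 had a negative log2 fold change, with a median of -0.95, and 0 passed. The summed complex I share in dT ran from 1.06% through 1.48% to 1.75% of counts without YM115 and from 0.437% through 0.655% to 0.995% with it. In Bio it ran from 0.337% through 1.32% to 2.00% and from 0.343% through 0.706% to 1.04%.
MT-CO3, a subunit of cytochrome c oxidase, was lower in 10 of 12 pairs, with a log2 fold change of -0.37 ± 0.19 (SE; edgeR adjusted p = 0.790). MT-CO1, of the same complex, gave -0.14 ± 0.18, with 8 of 12 pairs lower, and MT-CO2 gave 0.20 ± 0.46, with 8 of 12 pairs higher. MT-ATP6, of the ATP synthase, was counted in 5 of 12 libraries without YM115 and 9 of 12 with it. It reached the filter through the YM115 arm, where it is high, so no fold change is given for it. It was higher in 7 and lower in 2 of 12 pairs, and these counts share that limit. The list of complex III, IV and V messages, MT-ATP6 among them, had a median of -0.11 over 5 tested, 0 of which passed. MT-RNR2, the large ribosomal RNA of mitochondria, was higher in 9 of 12 pairs, at 0.70 ± 0.73. In Bio its median was 2734.0 CPM without YM115 and 5984.9 with it. Nuclear-encoded respiratory chain genes numbered 35 tested of 76, with 0 passed and 25 of 35 above 0 (median 0.71).

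Metallothioneins, small cysteine-rich proteins that bind zinc and copper, differed in level between the screens. MT2A made up 5391.9 to 9277.5 CPM (median 7090.0) in dT without YM115 and 8506.3 to 14443 (median 11330) with it. In Bio it ran from 21930 to 38897 (median 30510) without YM115 and from 18365 to 36887 (median 28686) with it. MT2A was thus higher with YM115 in 6 of 6 dT pairs and in 1 of 6 Bio pairs. The dT log2 fold change was 0.79 ± 0.20 (SE; edgeR adjusted p = 0.383) and the Bio value -0.08 ± 0.24 (edgeR adjusted p = 0.987). The median over all tested genes was 0.39 in the dT fit and 0.41 in the Bio fit.
MT1X had 1783.0 to 4175.1 CPM (median 2933.1) in dT without YM115 and 3662.6 to 7968.3 (median 5532.9) with it. In Bio its range was 7358.5 to 22452 without YM115 and 5794.0 to 33343 with it, and the arms overlapped widely. MT1X was higher in 6 of 6 dT pairs and 3 of 6 Bio pairs, with log2 fold changes of 1.19 ± 0.31 (edgeR adjusted p = 0.383) and 0.22 ± 0.38 (edgeR adjusted p = 0.987). MT1G was higher in 5 of 6 dT pairs and in 2 of 6 Bio pairs. DESeq2 put the dT adjusted p of MT1X at 0.0303 and that of MT2A at 0.0275. Of 11 metallothioneins 7 were tested and 0 passed in edgeR, with 6 of 7 above 0 and a median of 0.58.

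The difference between the screens was itself tested. Of 1438 genes, 0 passed for the Bio change minus the dT change (0.0%), 90 had an unadjusted p under 0.05 and DESeq2 called 75. Of 950 genes tested in both screens, 587 (61.8%) had one sign in both fits, and across these genes, which are not independent replicates, Pearson's r of the fold changes was 0.159. Among the 129 genes counted in every library, 90 (69.8%) had one sign and r was 0.23. Of the 950 genes tested in both screens, 5 had an unadjusted edgeR p under 0.05 in both. HBG2, RPL11P3 and GTF3C6 were higher in both, and CIZ1 and GSE1 lower. In the single screens, 6.84% of the 2326 genes of dT and 5.34% of the 1012 of Bio were under that value. These 5 genes were chosen after their values were seen.

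**Figure D4:**
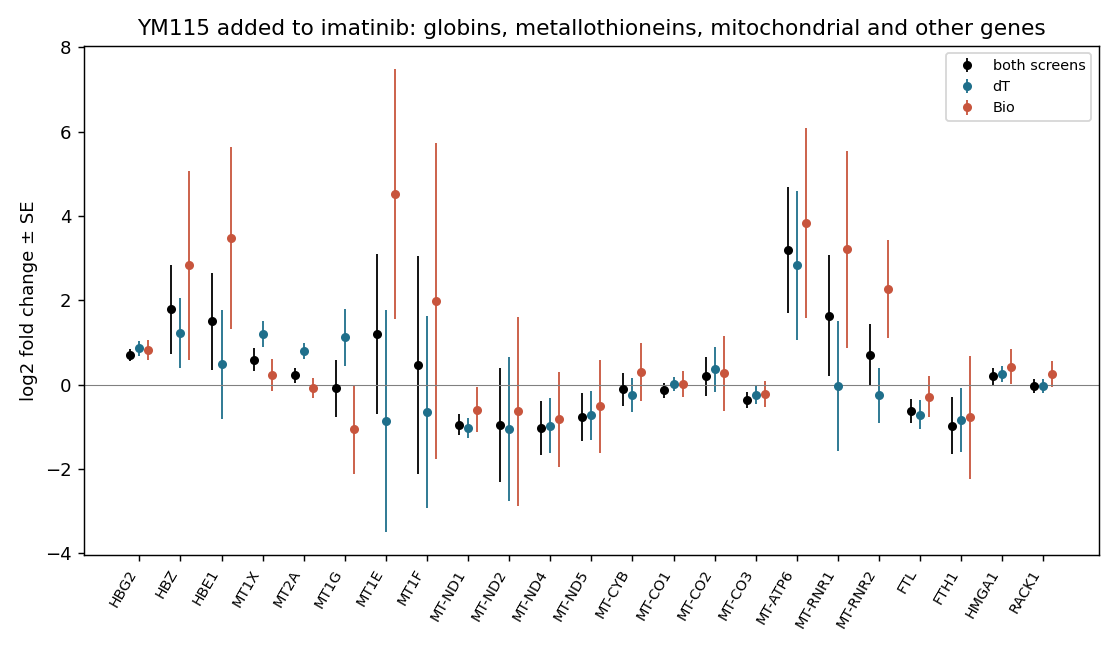
Fitted log2 fold change with its standard error (bars) for globins, metallothioneins, mitochondrially encoded genes, ferritins, HMGA1 and RACK1, from the fit of both screens (black), of dT (blue) and of Bio (red). HBG2 lies at 0.86 in dT and 0.81 in Bio, MT-ND1 lies below 0 in both, and MT1X and MT2A lie higher in dT than in Bio.

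Among iron storage and uptake genes, 3 of the 11 listed were tested and 0 passed, with log2 fold changes below 0 and a median of -0.97. FTL, the light chain of ferritin, was lower in 6 of 6 dT pairs and 4 of 6 Bio pairs. Its dT median was 8192.0 CPM without YM115 and 4714.4 with it, and its Bio median 7083.0 and 6005.0. The log2 fold change was -0.63 ± 0.29 (SE; edgeR adjusted p = 0.684). FTH1, the heavy chain, gave -0.97 ± 0.67 and was lower in 3 of 6 dT pairs and in 7 of 12 pairs over both screens.

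Chaperone, stress response and oxidant defence lists each held genes with a small unadjusted p, of which 0 passed the adjusted threshold. Among chaperones (19 of 32 tested, median 0.49), HSPA1A and HSPA1B, which encode the inducible HSP70, were counted in 3 of 12 libraries each without YM115 and in 10 and 9 of 12 with it. They reached the 50% filter through the YM115 arm, where they are high, so no fold change is given for them. These 2 genes share 73.7% of the 30-base windows of HSPA1A, so their counts are not separate evidence. HSP90B1, a chaperone of the endoplasmic reticulum, was counted in 4 libraries without and 11 with YM115, by the same route through the filter. HSPA5 and CALR of the same compartment had log2 fold changes of -2.54 and -3.63, and neither passed (smallest edgeR adjusted p of the list 0.392). In dT, among genes counted in every library, HSPA5 gave -2.34 ± 1.52 (SE; edgeR adjusted p = 0.709).
In the list of the integrated stress response and amino acid supply (11 of 24 tested, median -0.34, 8 below 0 and 3 above), the summed share in dT ran from 0.494% through 0.564% to 0.689% of counts without YM115 and from 0.193% through 0.305% to 0.425% with it, without overlap. In Bio it ran from 0.334% through 0.574% to 1.22% and from 0.00292% through 0.375% to 0.435%, with overlap. Such separation in dT was not particular to this list. The summed complex I messages (at least 1.06% without YM115, at most 0.995% with it) did not overlap there either. Nor did the metallothioneins (at most 1.39% without YM115, at least 1.40% with it). TRIB3, a pseudokinase induced by the integrated stress response, had a median of 675.53 CPM without YM115 and 42.5 with it. It was lower in 9 of 12 pairs, with a log2 fold change of -4.36 ± 1.37 (SE; edgeR adjusted p = 0.392). DDIT3, the factor CHOP, was counted in 8 of 24 libraries and was not tested over both screens. In dT it was counted in 0 of 6 libraries without YM115 and in 6 of 6 with it, and so entered the dT fit through that arm.
NQO1, a quinone reductase of the oxidant defence list (5 of 23 tested, median 0.03), was counted in 3 of 12 libraries without YM115 and in 9 with it, and it too reached the filter through the YM115 arm. These genes were picked within their lists after their values were seen. Libraries with YM115 were also the deeper ones, and the part of depth in their detection was not tested gene by gene.

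Ribosomal protein genes, which supply a large share of the counts, had list medians below the 0.30 over all tested genes. The 129 genes counted in every library, with a median of 0.07, include 16 of the large and 17 of the small subunit genes. Of 48 large subunit genes listed with counts, 40 were tested, 0 passed, and the median was 0.08. Of 32 small subunit genes 27 were tested, 0 passed, and the median was -0.03. RPL31 was higher by 0.24 ± 0.11 (SE; edgeR adjusted p = 0.684), and its processed pseudogene RPL31P2 was higher in 12 of 12 pairs at 0.59 ± 0.61. RPL11P3, a pseudogene of RPL11, was also higher in 12 of 12 pairs, from a dT median of 5.63 CPM to 19.03, at 1.79 ± 0.42 (edgeR adjusted p = 0.140). RPL11 itself gave 0.41 ± 0.59. Reads of such copies may be shared with their parents: 13.2% of the 30-base windows of RPL31P2 occur in RPL31 transcripts and 8.1% of those of RPL11P3 in RPL11. RACK1, a scaffold of the small subunit, gave -0.04 ± 0.17.
Other lists were equally without a passing gene. This held for translation factors (19 tested, median -0.04), glycolysis (9, -0.12), the proteasome (13, 0.65), splicing proteins (11, 0.27), the cytoskeleton (11, 0.07) and high mobility group proteins (5, 0.56). It also held for mitosis (5, 0.87), replication (6, 0.54), the BCR-ABL chain (4, 0.96), STAT5 and MYC targets (4, 1.79), nucleolar genes (4, 0.57), and DNA damage and apoptosis (1 gene, BAX, in both lists, 0.80). Hypoxia and ERK-induced genes had 0 members tested.

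The targets of the drugs were at the edge of detection. BIRC5 was counted in 5 of 24 libraries, 2 without YM115 and 3 with it, at a median of 0 CPM in every arm. BCR was counted in 9 libraries, and so was ABL1. None of the 3 had a count in 50% of the 24 libraries, so no fold change over both screens is given. A difference in BIRC5 was not detectable at this depth.

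Whether the response depends on which position of the label imatinib held was tested next. NDUFS8, a nuclear-encoded subunit of complex I (chr11), was the 1 gene of 1438 (0.0695%) past the threshold, at a log2 difference of 8.91 ± 1.67 (SE; edgeR adjusted p = 0.0318). With imatinib named first, NDUFS8 had 8613.0, 8731.2 and 11406 CPM in the 3 dT libraries of Imatinib_DMSO and 1367.8, 1690.9 and 4632.2 in those of Imatinib_YM115. With imatinib named second, it had 0, 0 and 3.69 in dT DMSO_Imatinib and 720.18, 1192.5 and 1961.0 in YM115_Imatinib. Bio showed the same order for imatinib alone, with 3567.3 to 7920.2 in Imatinib_DMSO and 10.05 to 21.4 in DMSO_Imatinib. Its pairs with YM115 spanned 33.7 to 2290.1 and 8.34 to 2596.0. Fitted by order, the NDUFS8 change with YM115 was -2.31 ± 0.71 (SE) with imatinib first (edgeR adjusted p = 0.657) and 7.36 ± 2.68 with imatinib second (edgeR adjusted p = 0.806), so neither change passed and only their difference did. The same gene ranged widely across ordered pairs elsewhere: it had 0 counts in 3 of 3 Bio libraries of Imatinib_Imatinib and 1520.4 to 2736.0 CPM in the dT ones. The NDUFS8 difference passed in dT alone (edgeR adjusted p = 0.000577) and not in Bio alone (0.608), without run 2 (0.491) or without run 3 (0.774). For this test 78 genes had an unadjusted p under 0.05 and DESeq2 called 51.

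The last comparison asked whether YM115 acts alike with and without imatinib. It set the 24 libraries beside 12 of YM115 with DMSO and 6 of DMSO_DMSO. HMGA1, an architectural chromatin protein that is abundant in proliferating and leukaemic cells, was the 1 gene of 1302 (0.0768%) past the threshold. In dT it had 8898.0, 14215 and 16379 CPM in solvent, 5395.0 to 7164.9 (median 5687.9) with YM115, 6305.3 to 10481 (median 7911.4) with imatinib and 7107.7 to 10553 (median 8603.1) with both drugs. In Bio it had 9498.1, 13866 and 14764 in solvent, 2428.1 to 6842.3 (median 5283.1) with YM115, 2921.4 to 14332 (median 7652.8) with imatinib and 5002.4 to 12420 (median 9381.4) with both drugs. Every library of YM115 alone lay below every solvent library, whereas imatinib with and without YM115 overlapped in both screens. HMGA1 is shown because it passed the test on these same libraries, so this separation is not separate evidence. The share of the 1302 tested genes that separate likewise was not counted.
The HMGA1 change with YM115 was -1.19 on the log2 scale without imatinib (edgeR adjusted p = 0.00148) and 0.16 with it (edgeR adjusted p = 0.890), from 1 fit of these 42 libraries. The difference of the changes was 1.35 ± 0.28 (SE; edgeR adjusted p = 0.0307). It was 1.38 in dT and 1.44 in Bio, where neither screen alone passed (edgeR adjusted p = 0.153 and 0.587). It missed the threshold with any 1 run left out, at adjusted p between 0.111 and 0.570, with values of 1.22 to 1.67. Leaving out 1 of the 6 solvent libraries gave adjusted p from 0.0125 to 0.174, past 0.05 without dT DMSO_DMSO of run 1 or Bio DMSO_DMSO of run 3 and not without dT run 2 (0.174), dT run 3 (0.106), Bio run 1 (0.113) or Bio run 2 (0.0785).
The processed pseudogene HMGA1P3, of which 27.5% of 30-base windows occur in HMGA1 transcripts, had a difference of 4.25 ± 1.00 (SE; edgeR adjusted p = 0.0802). Without imatinib, 4 of 1302 genes passed for YM115 (0.307%, 126 at an unadjusted p under 0.05), all lower and all of this family: HMGA1, HMGA1P2, HMGA1P3 and HMGA1P8. With imatinib, the same fit passed 3 genes (0.23%, 101 at an unadjusted p under 0.05): HBG2 at 0.66, MT-ND1 at -1.02 and ZNG1C at 3.43. ZNG1C was counted in 4 of 12 libraries of imatinib alone and in 11 of 12 with YM115, so it reached the filter with the help of the arm in which it is high. HBG2 had a similar value for YM115 without imatinib, 0.64 (edgeR adjusted p = 0.111), and MT-ND1 had -0.66 (edgeR adjusted p = 0.378). MT1X had 1.13 without imatinib (edgeR adjusted p = 0.111) and 0.52 with it. In the test of the difference 90 genes had an unadjusted p under 0.05 and DESeq2 called 46. Among genes counted in every library, a setting added after the data were seen, HMGA1 and MT-CO2 passed. The MT-CO2 difference was 1.52 ± 0.41 there (SE; edgeR adjusted p = 0.0367). Among all 1302 genes it was 1.39 ± 0.50 (edgeR adjusted p = 0.490).

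**Figure D5:**
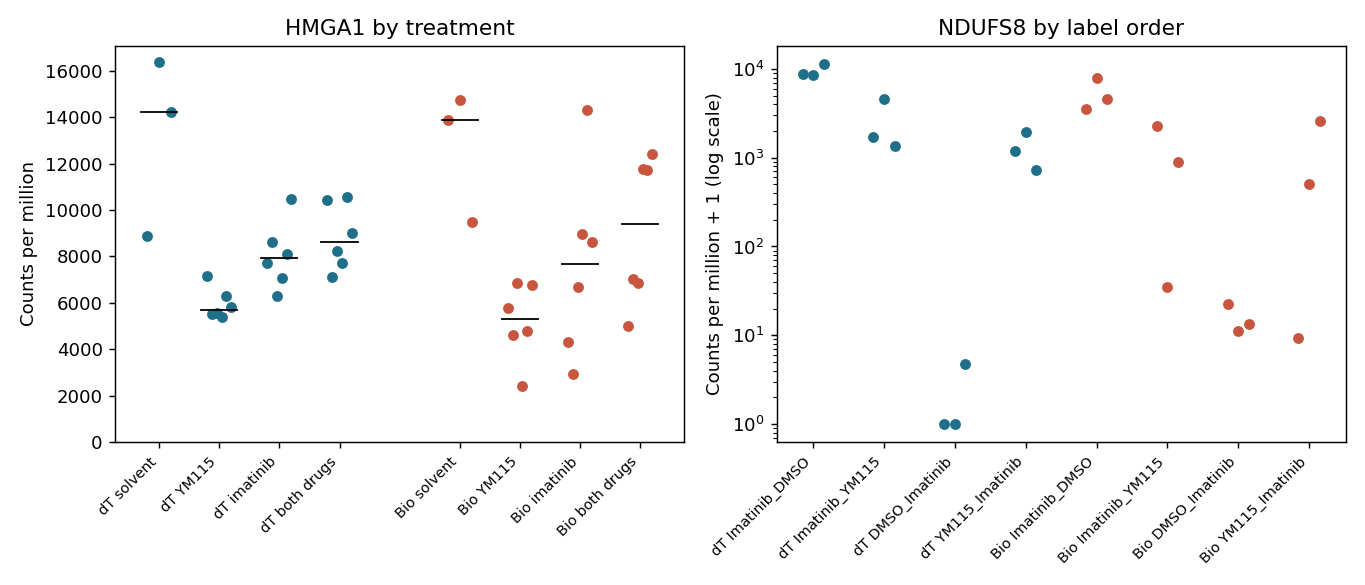
Left, HMGA1 (CPM, linear axis from 0) by treatment in dT (blue) and Bio (red), each point 1 library and each bar a median: YM115 alone lies below solvent, and both drugs (8603.1 and 9381.4) lie near imatinib alone. Right, NDUFS8 (CPM plus 1, log axis) by ordered pair of the label, 3 libraries each: Imatinib_DMSO has 3567.3 or more and DMSO_Imatinib at most 21.4 in both screens.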

How the data were processed

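Libraries were made by Combi-Seq, in which droplets combine cells with a drug pair and each drug brings a barcode fragment. The authors deposited raw counts, whole numbers of reads per gene in each library after demultiplexing on the joined barcodes. STAR 2.4.2a and GRCh38 are named in the submitters' processing notes. Annotation, strand and molecular identifiers are not given in the sources used here, so antisense and overlapping genes cannot be separated and depth limits cover counting error only. Libraries under 1000 detected genes were to be left out, which removed 0 of the 24 (and 0 of the 42 used with the YM115 and solvent libraries). In its figure legends the study gives fewer replicates for the pairs labelled here YM115_Imatinib and DMSO_Imatinib than for the other samples. Those legends do not say which runs were absent or why, and every run of both pairs was kept here. The authors' annotation table of barcodes was not used.

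A gene entered a fit when 50% or more of its libraries held a read of it, and was tested with edgeR 4.0.16 (R 4.3.3; TMM, glmQLFit, glmQLFTest; Benjamini-Hochberg over all genes tested, threshold 0.05; SE from fold change and F). Screen by run was a block, because the study describes one raw file per replicate and screen. Deviations of same-run libraries correlated at a mean r of 0.102 (36 pairs, 55.6% over 0.1) against -0.0508 for 72 different-run pairs. Of 24 replicate pairs 0 were identical, and chi-square divided by its degrees of freedom was 33 or more. CPM are counts over the library total, times 1000000. Library measures were compared with exact permutation tests within screen and run, on log2 values for totals and detected genes. DESeq2 1.42.0 and other scalings, filters, blocks and left-out libraries were alternatives. The fits were tested on simulated data.

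Members and gene lists were chosen with earlier results of these data known. The text names the genes that pass in each test by p, BIRC5, BCR and ABL1, HBG2, MT1X, MT2A, MT-ND1, MT-CO3, HMGA1, FTL and RACK1 as named in an earlier account, and, where said, genes chosen after their values were seen, among them the other members of the lists. Positions come from GENCODE 29 (GRCh38). Analysis used python 3.11.15, numpy 2.4.6, pandas 2.3.3, scipy 1.17.1 and matplotlib 3.10.9.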

Additional observations from a re-analysis of the deposited data

Results flagged for a closer look

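For NDUFS8 the YM115 change differed by label order: the change with imatinib named second minus that with imatinib named first was 8.91 on the log2 scale (edgeR adjusted p = 0.0318), while neither order's own change passed (edgeR adjusted p = 0.657 and 0.806). The difference missed the threshold without run 2, without run 3 and in Bio alone.

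HMGA1 differed between backgrounds: the YM115 change with imatinib minus that without it was 1.35 on the log2 scale (edgeR adjusted p = 0.0307). It missed the threshold without any 1 run (edgeR adjusted p from 0.111 to 0.570), in each screen alone (0.153 and 0.587) and without 4 of the 6 solvent libraries.

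Of 47 groups of 6 libraries examined for a library standing apart, 4 held one, and chance gives about 1 in 20. FTL was low in dT Imatinib_DMSO of run 3 (2897.5 CPM) and in Bio Imatinib_DMSO of run 2 (2567.2). RACK1 was low in dT DMSO_Imatinib of run 3 (8690.0 CPM). MT-CO3 was low in Bio DMSO_Imatinib of run 1 (7379.9 CPM). All 4 were libraries without YM115.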

How the results depend on the processing

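Over both screens the number of genes past the threshold was 0. It was 1 with the size factors of DESeq2, 1 with total counts alone, 1 after thinning to equal totals, 1 with imatinib named first, 2 among genes counted in every library, 3 with the solvent and YM115 libraries in the same fit (added after the data were seen) and 78 with DESeq2. Leaving out a run or a library gave 0 to 2. Where it gave 2, HBG2 was 1 of them and the other is not named here. Without Bio DMSO_Imatinib of run 3 it gave 1 gene, which was not HBG2 (edgeR adjusted p = 0.0447). In dT, 0 became 143 with DESeq2, 1 with no filter on low counts and 1 among genes counted in every library (added), with 0 to 1 when a run was left out. In Bio, 0 became 56 with DESeq2. For the Bio minus dT difference, 0 became 75 with DESeq2. For label order, 1 became 51 with DESeq2, 2 without the replicate block, 0 in Bio only (added) and 0 to 1 without a run. For the difference by imatinib, 1 became 46 with DESeq2. In settings added after the data were seen it became 2 among genes counted in every library, HMGA1 and MT-CO2. The other such settings gave 0 in dT only, 0 in Bio only and 0 to 2 with a solvent library left out. This count was 0 with each run left out, as planned. Without the replicate block the other counts stayed at 0 or 1, and the cause of these differences was not tested.

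Signs turned on the log2 scale for MT2A with total counts as a covariate (-0.12), MT-CO3 and HMGA1 with imatinib named first (0.026 and -0.15), and MT1X in Bio with DESeq2 (-0.032) and its size factors (-0.033). RACK1 turned with no filter (0.18), after thinning (0.0036), and with imatinib named first (0.12) or second (0.16). With a run or library left out, RACK1 ranged from -0.074 to 0.20, MT1X in Bio from -0.24 to 0.61 and MT2A in Bio from -0.24 to 0.058. HBG2 and MT-ND1 turned in no setting.

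Without a run, the log2 difference in total counts ranged from 0.43 to 0.75 and missed the threshold without run 1 (exact p = 0.142) or run 2 (exact p = 0.0664), and Bio only gave 0.43. Detected genes ranged from 0.34 to 0.53, missing it without run 1 (exact p = 0.071) or run 2 (exact p = 0.0756), with 0.40 in dT only and 0.43 in Bio only. The mitochondrial difference ranged from -1.15 to -0.71 points, missing it without run 2 (exact p = 0.0556) or run 3 (exact p = 0.0586), with -0.50 in Bio only, and -0.87 at an exact p of 0.0807 without the replicate block. Since 0 libraries were dropped, the settings that keep every library or drop those above 15% mitochondrial counts gave no other value. At 86866 to 759756 counts per library, transcripts such as BIRC5 could not be compared.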
